A study of Mus musculus with 89 samples.

Results

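The transcripts *Kl*, *Abca4* and *Slc39a4* are described here across 2 mouse experiments. They are 3 of the 16133 genes listed in at least 1 of the 3 deposited tables, and all 3 tables hold them. The study singled them out for their hippocampal levels in 1 infusion arm. That contrast in the hippocampus therefore chose the members, and its values are given as a description without a test. In the infusion experiment, aged wild-type C57BL/6 mice received tail-vein injections every 3 days over 25 days, of 100 µL of serum from young mice (YS), of 100 µL of the same kind of serum depleted of extracellular vesicles (YDS), or of saline (Sham). Choroid plexus (34 libraries) and hippocampus (38 libraries) were sequenced in bulk. The sample titles name every one of these 72 libraries a young serum infusion, and the arm can be read only from the column headings of the tables. Libraries are named here by that heading and the number in the sample title. The headings give 10 Sham, 14 YS and 14 YDS libraries in the hippocampus and 8, 12 and 14 in the choroid plexus. The study states fewer Sham and YS mice for its hippocampal comparison than these headings hold. The labels and methods give male mice, whereas figure captions of the study give both sexes. In the Klotho experiment, there were 4 libraries of Klotho knockout mice (Klko) and 4 of wild-type mice (WT-y) at 2 months, and 5 of heterozygous mice (Klhet) and 4 of wild-type mice (WT-o) at 9 months. The labels number these libraries without saying that each is a separate mouse, so the p-values below measure the spread between libraries. Genotype and age change together between these 2 comparisons. The allele is not given in the sources used here. The labels of the Klotho mice name the tissue as brain and its RNA as cortical, whereas the methods of the study name the hippocampus.

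*Kl* encodes α-Klotho, a single-pass membrane protein that serves as co-receptor of FGF23 together with FGF receptors. Its ectodomain is shed by ADAM10, ADAM17 and BACE1, and in the body its transcript is abundant in kidney tubules and in the epithelium of the choroid plexus. *Abca4* encodes an ATP-binding cassette lipid transporter best known from photoreceptor outer segments, where it moves retinoid-phosphatidylethanolamine across the disc membrane. *Slc39a4* encodes ZIP4, a zinc importer best known from the small intestine. The choroid plexus lies in the brain ventricles next to the hippocampus and secretes cerebrospinal fluid. *Ttr*, which encodes the thyroxine carrier transthyretin, and *Folr1*, which encodes the folate receptor α that carries folate into the cerebrospinal fluid, are transcripts of its epithelium and serve here as references for this tissue. In bulk tissue, fewer cells of a type and less RNA per cell cannot be told apart.

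On GRCm38, *Kl* lies on chromosome 5 from 150952607 to 150993817 (plus strand), *Abca4* on chromosome 3 from 122044443 to 122180123 (plus strand) and *Slc39a4* on chromosome 15 from 76612383 to 76617384 (minus strand). All 3 are protein-coding. A processed pseudogene lies antisense within *Abca4*. Its reads cannot be told apart from those of *Abca4* if it overlaps an exon and counting ignored strand. The RefSeq start of *Abca4* lies slightly downstream of the GENCODE start. The 250 bases before the RefSeq start (GRCm38.p6) are shown for *Kl* and *Abca4*, the members found in the promoter table used, as the promoter-proximal sequence of each. Capitals mark matches on either strand to GGGCGG, the GC box (CCGCCC on the opposite strand), and to TAATCC, the core recognised by OTX-type homeodomain factors (GGATTA on the opposite strand).
Kl, chr5:150952357-150952606, plus strand: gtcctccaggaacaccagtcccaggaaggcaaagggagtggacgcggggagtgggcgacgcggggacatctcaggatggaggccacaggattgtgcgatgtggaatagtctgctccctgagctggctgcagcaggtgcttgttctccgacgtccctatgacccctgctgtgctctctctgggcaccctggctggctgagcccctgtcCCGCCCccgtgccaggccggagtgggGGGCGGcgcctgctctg
Abca4, chr3:122044210-122044459, plus strand: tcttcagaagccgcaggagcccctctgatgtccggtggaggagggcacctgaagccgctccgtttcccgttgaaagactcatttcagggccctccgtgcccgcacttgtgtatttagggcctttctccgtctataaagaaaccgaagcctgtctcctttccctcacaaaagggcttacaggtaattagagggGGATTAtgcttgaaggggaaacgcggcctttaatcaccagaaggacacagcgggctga
The *Kl* window has 2 GC boxes, which begin 43 and 17 bases before the start, and a GC content of 66.8%. The *Abca4* window has none, a GC content of 54.4%, and 1 match to TAATCC on the opposite strand, which begins 58 bases before the start. Of 32851 RefSeq promoter windows of the same length, 32.7% hold the GC box and 6.25% hold TAATCC in either orientation. The 2 motifs do not overlap in these windows, and a match describes the letters only.

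The choroid plexus libraries held far more of each transcript than the hippocampal ones. The median of the 34 choroid plexus libraries was 3765 CPM (a gene's reads scaled to a common library total, the usual counts-per-million scale) for *Kl*, 813 CPM for *Abca4* and 93.4 CPM for *Slc39a4*. In the 38 hippocampal libraries the medians were 29.9, 1.84 and 1.07 CPM. The ratio of the medians was 126.1 for *Kl*, 442 for *Abca4* and 87 for *Slc39a4*, compared with 14621 for *Ttr* and 1332 for *Folr1*. The 2 tissues are in separate tables, so these ratios carry no test. Per kilobase of merged exons, the median level in the choroid plexus was 403.7 for *Kl*, 67.7 for *Abca4* and 30.1 for *Slc39a4*, in CPM per kilobase. In the hippocampus the order of the lower pair was the opposite, with 3.20 for *Kl*, 0.35 for *Slc39a4* and 0.15 for *Abca4* on the same per-length scale. The hippocampal values of *Abca4* and *Slc39a4* rest on few reads, with a median of 58 and 29 reads per library, while *Kl* rests on a median of 912 reads. *Abca4* had 0 reads in 1 Sham hippocampal library, which allows a level of up to 0.118 CPM, and *Slc39a4* had 0 in another, which allows up to 0.103 CPM. These limits cover counting error only.

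All 14 epithelial markers of the choroid plexus were listed in the choroid plexus and Klotho tables. The hippocampus listed 6 of the 14 (*Ttr*, *Folr1*, *Clic6*, *Sostdc1*, *F5* and *Prlr*), with a summed level of 4.49 to 1399 CPM per library and a median of 17.7 CPM. The 8 markers of hippocampal neurons summed to 11037 to 14085 CPM in those libraries, and 5 of them were listed in the choroid plexus table, at 54.5 to 414.6 CPM. A library had 23231524 to 40801000 counted reads in the hippocampus, 27165663 to 46836730 in the choroid plexus and 26338890 to 40229041 in the Klotho mice. In 4 hippocampal libraries *Ttr* was over a limit of 10 times the median of 8.75 CPM. They were Sham 5 (263 CPM), YS 20 (658 CPM), YS 21 (1232 CPM) and YDS 37 (158 CPM), and the 2 YS libraries were the highest. On the first principal component of the choroid plexus table, which held 56.3% of the variance, 11 libraries stood apart from 22 others, with 1 between. On that of the hippocampal table, which held 27% of the variance, 5 libraries stood apart, 3 of them Sham. The arms are therefore given with and without these sets.

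*Kl* in the hippocampus was highest in 2 YS libraries, and the arms overlapped otherwise. Its level was 21.9 to 35.4 CPM in Sham (median 27.4, n = 10), 25 to 147 CPM in YS (median 33.3, n = 14) and 23.5 to 43.1 CPM in YDS (median 29.3, n = 14). YS 21 held 147 CPM and YS 20 held 94.5 CPM, more than any other library, whereas the next YS library held 43.6 CPM and the highest YDS library 43.1 CPM. Of the 14 YS libraries, 3 lay above every Sham and YDS library. The highest libraries of Sham and YDS, Sham 5 at 35.4 CPM and YDS 37 at 43.1 CPM, were those with *Ttr* over the limit. Without the 4 libraries of high *Ttr*, *Kl* was 21.9 to 32 CPM in Sham (median 26.6, n = 9), 25 to 43.6 CPM in YS (median 31.3, n = 12) and 23.5 to 35.6 CPM in YDS (median 29, n = 13). The order of the medians, Sham below YDS below YS, was the same in both sets, and neighbouring arms overlapped in both. In the smaller set, 4 of 12 YS libraries (1, 3, 15 and 19, at 38.7 to 43.6 CPM) lay above every Sham and YDS library. Their *Ttr* was 5.32 to 22.8 CPM, within the range of the Sham libraries in this set (1.83 to 57.6 CPM), and YS 19 at 22.8 CPM was above every YDS library (at most 22.5 CPM). *Folr1* was 1.72 CPM in YS 1 and 1.32 CPM in YS 19, above every Sham (at most 1.24 CPM) and YDS library (at most 1.06 CPM) of the set, and 0.67 and 0.32 CPM in YS 3 and YS 15. In this set 4 of 12 YS libraries lay above all others for *Folr1*, and the medians of *Ttr* were 8.23 CPM in Sham, 13.3 in YS and 7.36 in YDS. The part of choroid plexus tissue in the *Kl* values of this set was not tested.

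*Abca4* in the hippocampus was likewise highest in these 2 libraries. YS 21 held 38.1 CPM and YS 20 held 15.4 CPM, and the third, YS 27, held 8.21 CPM. The other 11 YS libraries lay at 0.58 to 3.83 CPM. Sham libraries held 0 to 3.31 CPM (median 1.48, n = 10) and YDS libraries 1.17 to 3.1 CPM (median 1.82, n = 14), against a YS median of 2.23 CPM (n = 14). Without the libraries of high *Ttr* the medians were 1.46 in Sham, 2.04 in YS and 1.73 CPM in YDS. Of 14 YS libraries, 5 lay above every library of the other arms, and 3 of 12 did in the smaller set.

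*Slc39a4* in the hippocampus lay at or under 6.00 CPM in every library. It was 0 to 1.25 CPM in Sham (median 0.84, n = 10), 0.43 to 6 CPM in YS (median 1.4, n = 14) and 0.18 to 2.52 CPM in YDS (median 0.85, n = 14). YS 21 and YS 20 were again highest, with 6 and 4.42 CPM, followed by YS 27 with 2.79 CPM and YDS 37 with 2.52 CPM. Of 14 YS libraries, 7 lay above every Sham library and 3 above every YDS library, and in the set without high *Ttr* 4 of 12 lay above both. Without the libraries of high *Ttr* the medians were 0.74 in Sham, 1.2 in YS and 0.82 CPM in YDS. Without the 5 libraries that stood apart on the first component, the YS medians were 34.8 CPM for *Kl*, 2.23 for *Abca4* and 1.6 for *Slc39a4*, the Sham medians were 25.7, 1.46 and 0.69 CPM and the YDS medians were 29.5, 1.91 and 0.88 CPM.

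**Figure D1:**
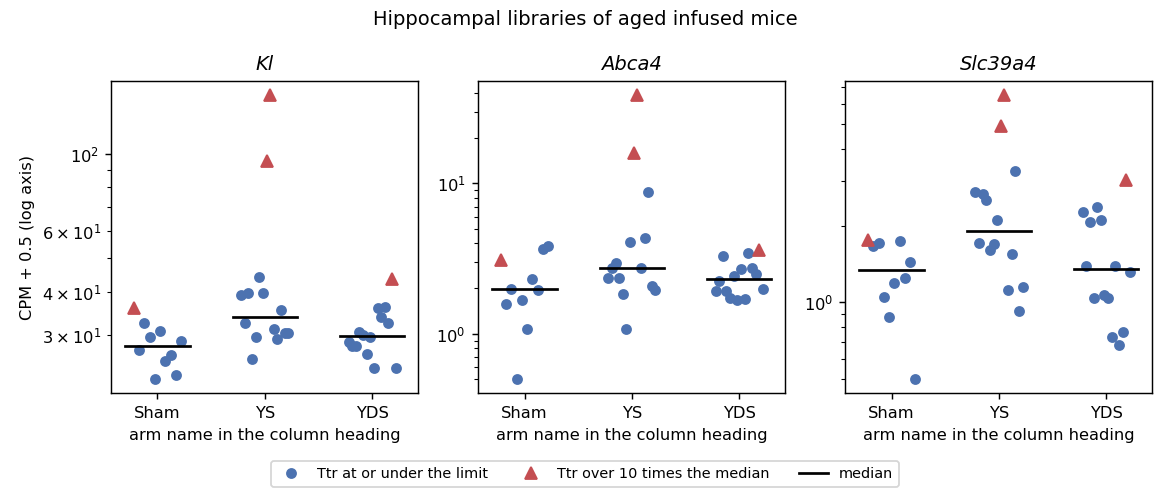
Level of Kl, Abca4 and Slc39a4 in each of the 38 hippocampal libraries (CPM + 0.5, log axis) by the arm in the column heading. Lines are medians and triangles are the 4 libraries whose Ttr was over 10 times the median, of which YS 20 and YS 21 are the 2 highest points for all 3 genes.

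The references moved with the members in these 2 libraries. *Folr1* was at 17.9 CPM in YS 20 and 22.4 CPM in YS 21, compared with 0 to 2.51 CPM in the 34 libraries whose *Ttr* was within the limit. All 6 listed epithelial markers were above the range of those 34 libraries in both, which for *Ttr* follows from the limit. *Clic6* (a chloride channel protein) was at 51.1 and 75 CPM against at most 10.7 CPM. *Sostdc1* (a secreted BMP antagonist) was at 9.98 and 24.2 CPM against at most 3.99, *F5* (coagulation factor V) at 10.3 and 29.2 against at most 3.42 and *Prlr* (the prolactin receptor) at 13.4 and 16.5 against at most 5.51 CPM. The ependymal markers summed to 35.3 CPM in YS 20, the highest YS library, and 29.8 CPM in YS 21, compared with at most 41.2 CPM in any hippocampal library, which was a Sham library. The part of choroid plexus tissue in the arm values was not tested.

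The amount by which each member exceeded the median of the 34 libraries was set beside the choroid plexus library whose column heading carries the same number. Per CPM of *Folr1* above its own median, *Kl* was 3.78 in YS 20 and 5.39 in YS 21. In those choroid plexus libraries (YS 16 and YS 17), *Kl* per CPM of *Folr1* was 4.15 and 4.34. *Abca4* on the same scale was 0.79 and 1.66 in the hippocampal libraries and 1 and 1.03 in the choroid plexus libraries, and *Slc39a4* was 0.20 and 0.23 against 0.14 and 0.11. Per 1000 CPM of *Ttr*, on the other hand, the excess of *Kl* was 100 and 96.3 CPM in the hippocampal libraries and 32.6 and 30 CPM in the choroid plexus libraries. *Ttr* itself was 37.6 and 56 CPM per CPM of *Folr1* in the excess and 128 and 144 in the choroid plexus. The excess per *Folr1* thus lay at 0.91 and 1.24 times the choroid plexus ratio for *Kl*, at 0.79 and 1.62 times for *Abca4*, at 1.47 and 2.13 times for *Slc39a4* and at 0.29 and 0.39 times for *Ttr*. For *Clic6*, *Sostdc1*, *F5* and *Prlr* it lay at 0.38 to 1.35 times. In YDS 37, the other library of high *Ttr* with a choroid plexus counterpart, the excess per *Folr1* was 5.28 for *Kl*, 0.51 for *Abca4* and 0.62 for *Slc39a4*, against 5.15, 1.06 and 0.12 in that counterpart. These are values of 3 libraries and carry no test.

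Across the 38 hippocampal libraries, *Kl* had a Pearson r of 0.73 with *Ttr* and 0.79 with *Folr1* on the log2(CPM + 0.5) scale (Spearman rho 0.44 and 0.32). *Abca4* had an r of 0.57 and 0.73, and *Slc39a4* of 0.59 and 0.68. Without YS 20 and YS 21, r was lower for all 6 relations, at 0.38 and 0.30 for *Kl*, 0.11 and 0.33 for *Abca4* and 0.32 and 0.43 for *Slc39a4* (n = 36). Within the 34 libraries of *Ttr* within the limit, r with *Ttr* was 0.21 for *Kl*, -0.020 for *Abca4* and 0.22 for *Slc39a4*, and r with *Folr1* was 0.14, 0.27 and 0.35. Within the arms, r of *Kl* with *Ttr* was 0.68 in Sham (n = 10), 0.91 in YS (n = 14) and 0.46 in YDS (n = 14), and with *Folr1* it was 0.66, 0.87 and 0.17. For *Abca4* it was -0.18, 0.86 and 0.66 with *Ttr* and -0.11, 0.90 and 0.53 with *Folr1*. For *Slc39a4* it was 0.16, 0.81 and 0.51 with *Ttr* and -0.39, 0.82 and 0.82 with *Folr1*. The Sham and YDS arms hold neither YS 20 nor YS 21, but each holds a library of high *Ttr*. These are Sham 5 (*Ttr* 263 CPM) and YDS 37 (158 CPM), also the highest of their arms for *Kl*. Spearman rho of *Kl* with *Ttr* was 0.59 in Sham, 0.61 in YS and 0.16 in YDS, and with *Folr1* 0.61, 0.40 and -0.14. For *Abca4* rho was -0.21, 0.56 and 0.54 with *Ttr* and 0.055, 0.73 and 0.45 with *Folr1*. For *Slc39a4* rho was 0.030, 0.54 and 0.29 with *Ttr* and -0.25, 0.65 and 0.90 with *Folr1*. Because the members were chosen on hippocampal values that include YS 20 and YS 21, no p is given for them. All these libraries share 1 scaling to counted reads.

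**Figure D2:**
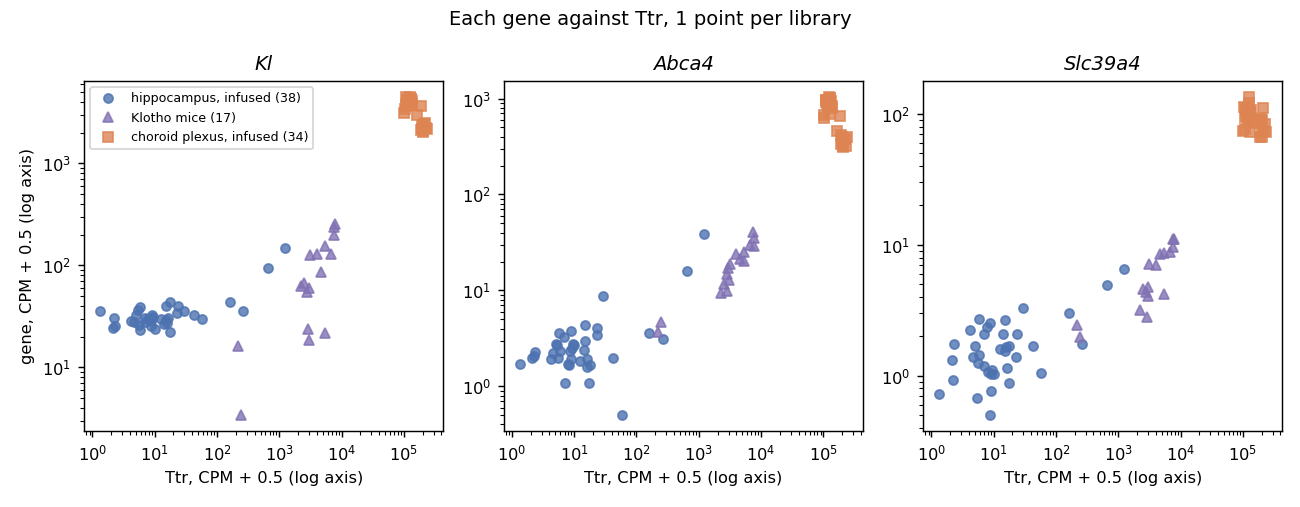
Level of Kl, Abca4 and Slc39a4 against that of Ttr in the same library (CPM + 0.5 on both axes, log axes), with 38 hippocampal, 17 Klotho and 34 choroid plexus libraries, 1 point each. Among the hippocampal points YS 20 and YS 21 are highest on both axes, and 15 of the 17 Klotho points lie between the hippocampal and the choroid plexus points along Ttr.

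In the choroid plexus the arms overlapped for all 3 transcripts, and YS was not the highest arm for *Kl* or *Abca4*. *Kl* was 2146 to 4468 CPM in Sham (median 3765, n = 8), 2073 to 4087 CPM in YS (median 3535, n = 12) and 2003 to 4427 CPM in YDS (median 3902, n = 14). *Abca4* was 318 to 1038 CPM in Sham (median 880), 321 to 971 CPM in YS (median 749) and 315 to 1021 CPM in YDS (median 818). No YS library lay above every Sham library for either gene, nor above every YDS library. *Slc39a4* was 66 to 121 CPM in Sham (median 94.4), 73.2 to 134 CPM in YS (median 98) and 66.5 to 106 CPM in YDS (median 91.5). For *Slc39a4*, YS 16 was above all other libraries. Its *Kl* level of 4044 CPM and *Abca4* level of 971 CPM were within the range of the other arms.

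Within each choroid plexus arm the low values of *Kl* and *Abca4* were those of the 11 libraries that stood apart (2 Sham, 4 YS and 5 YDS). *Kl* was 2003 to 2997 CPM in these 11 and 3099 to 4468 CPM in the 22 others. *Abca4* was 315 to 455 CPM against 622 to 1038 CPM, and *Folr1* was 424.4 to 517 CPM against 686 to 1008 CPM, all 3 without overlap. *Ttr* went the other way without overlap, at 163015 to 235998 CPM in the 11 and 102233 to 137424 CPM in the 22. *Slc39a4* overlapped, at 66.5 to 111 CPM and 72.6 to 134 CPM. Of 13662 genes, 31.7% did not overlap between these sets (19.7% lower and 12.0% higher in the 11). The sets were chosen on these values, so nothing is read from the count. The ependymal markers summed to 507 to 587 CPM in the 11 libraries and 285 to 484 CPM in the 22, and those of meningeal fibroblasts to 2172 to 2532 and 2424 to 6080 CPM. All 11 were among the 13 libraries with the lowest numbers in the column headings, together with 1 of the 22 and the library between. The labels name no batch, and the part of the numbering in these values was not tested.

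Per CPM of *Folr1*, *Kl* was 4.08 to 6.91 in the 11 libraries and 3.81 to 5.79 in the 22. Per 1000 CPM of *Ttr*, it was 9.09 to 18.4 CPM in the 11 and 27.9 to 40.6 CPM in the 22. *Kl* thus overlapped between the sets per *Folr1* but not per *Ttr*. Since *Kl* was lower and *Ttr* higher in the 11 without overlap, their ratio could not overlap, and nothing is read from it. Within the 22 libraries the arm medians of *Kl* were 4132 CPM in Sham (n = 5), 3941 CPM in YS (n = 8) and 4092 CPM in YDS (n = 9). Those of *Abca4* were 974, 884 and 872 CPM and those of *Slc39a4* 109, 100 and 95.6 CPM, so the Sham median was the highest for all 3. Within the 11 libraries the medians of *Kl* were 2171 CPM in Sham (n = 2), 2384 CPM in YS (n = 4) and 2189 CPM in YDS (n = 5), and those of *Abca4* were 359, 364 and 399 CPM.

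**Figure D3:**
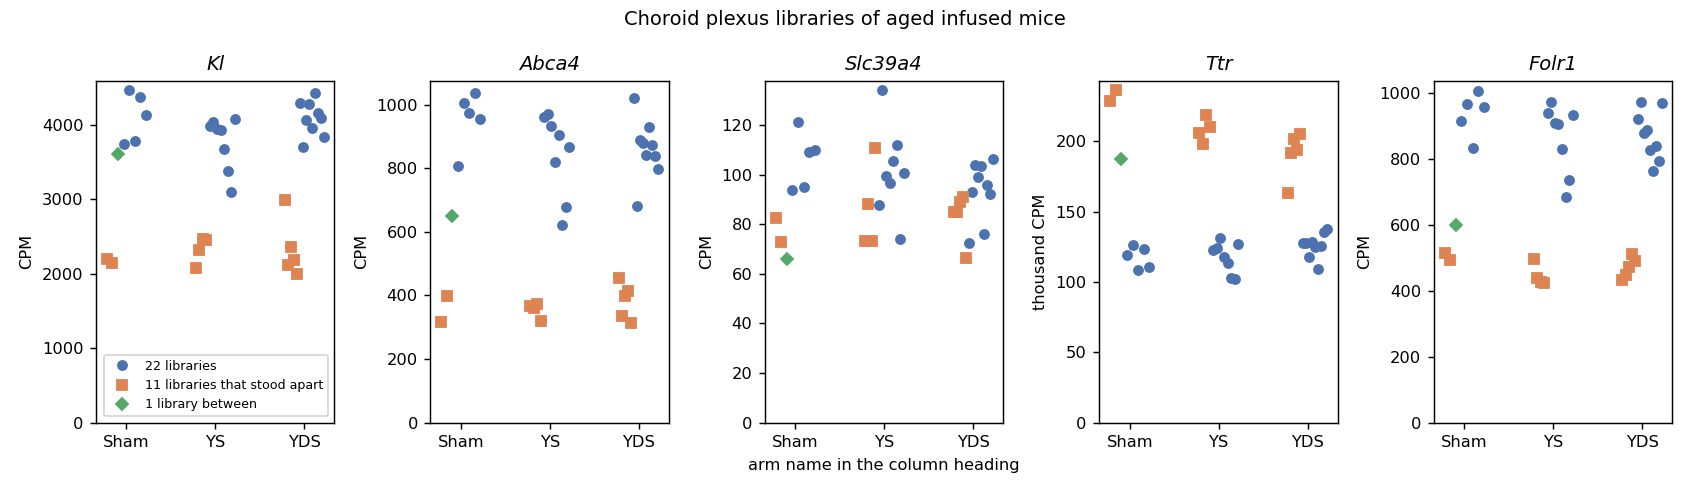
Level of Kl, Abca4, Slc39a4, Ttr and Folr1 in each of the 34 choroid plexus libraries by the arm in the column heading (CPM, and CPM / 1000 for Ttr, linear axes from 0). Squares are the 11 libraries that stood apart on the first principal component, circles the 22 others and the diamond the library between. The squares are low for Kl, Abca4 and Folr1 and high for Ttr in each arm.

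Because the libraries fall into these sets, no correlation of a member with a reference over all 34 is given. Within the 22, *Kl* had an r of 0.51 with *Folr1* and 0.51 with *Ttr* (permutation p = 0.0165 and 0.0147, Benjamini-Hochberg adjusted p = 0.054 and 0.0529 over 36 relations within sets and arms). Its Spearman rho was lower, at 0.27 with *Folr1* and 0.32 with *Ttr* (permutation p = 0.226 and 0.148). *Abca4* had an r of 0.52 with *Folr1* (Spearman rho 0.39, permutation p = 0.0117 and 0.0751, adjusted p = 0.0468 for r) and 0.29 with *Ttr*. The 36 relations include those of the hippocampus, where the members were chosen. Small p among those can lower the adjusted p of the others, so the 0.0468 is not read as a pass. For *Slc39a4* the adjusted p of both relations was over the threshold of 0.05 (r = 0.35 with *Folr1* and 0.18 with *Ttr*). Within the 11, no relation passed, and r of *Kl* with *Folr1* was -0.66 (adjusted p = 0.0567, permutation test).

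In the Klotho mice *Kl*, the targeted gene, separated Klko from WT-y and serves as a check of the labels. Klko replicates 1 to 4 held 2.9, 21.2, 23.3 and 18 CPM, and WT-y replicates 1 to 4 held 237, 66.6, 62.3 and 155 CPM. No Klko library reached the lowest WT-y library. The log2 difference, Klko minus WT-y on the log2(CPM + 0.5) scale, was -3.06 (standard error 0.63, adjusted p = 0.00999 from limma). It was -3.06 with an adjusted p of 0.0771 when only these 2 groups were fitted, and leaving out any single library gave an adjusted p of 0.00251 to 0.0403. CPM per gene do not show where along *Kl* the Klko reads fall. Klhet replicates 1 to 5 held 84.7, 54.3, 128, 59.3 and 15.6 CPM and WT-o replicates 1 to 4 held 256, 129, 127 and 198 CPM. The log2 difference was -1.59 (standard error 0.60, 95% interval -2.85 to -0.33). In limma it gave p = 0.0166 before adjustment over all genes and 0.406 after it. Klhet replicate 3 lay within the WT-o range.

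*Abca4* did not pass the test in either comparison. Klko libraries held 4.15, 19.5, 9.44 and 16.7 CPM and WT-y libraries 40.3, 11.1, 8.89 and 24.7 CPM, in the order of the replicate numbers. The groups overlapped, and the log2 difference was -0.70 (standard error 0.58, 95% interval -1.92 to 0.51, adjusted p = 0.445 from limma). It was -0.28 without Klko replicate 1 and -0.32 without WT-y replicate 1. Klhet libraries held 20.7, 14.3, 29.5, 12.3 and 3.15 CPM and WT-o libraries 35, 23.7, 18.3 and 28.8 CPM. Here the log2 difference was -0.96 (standard error 0.55, interval -2.12 to 0.19, adjusted p = 0.482), and it was -0.49 without Klhet replicate 5.

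*Slc39a4* was at 1.48, 3.73, 2.31 and 3.53 CPM in Klko and at 10.6, 4.08, 2.69 and 8.18 CPM in WT-y. Only WT-y replicate 3 lay within the Klko range. The log2 difference of -0.97 (standard error 0.41, interval -1.83 to -0.12) gave p = 0.0283 before adjustment in limma and 0.123 after it, against an adjusted 0.0366 from DESeq2 on recovered reads. It was 8, 3.84, 8.27, 4.29 and 1.93 CPM in Klhet and 10.5, 6.56, 6.66 and 9.15 CPM in WT-o, a log2 difference of -0.72 (standard error 0.39, interval -1.54 to 0.09, adjusted p = 0.466). The difference between the 2 comparisons did not pass for any member (log2 -1.47 for *Kl*, 0.26 for *Abca4* and -0.25 for *Slc39a4*, adjusted p = 0.66, 0.953 and 0.933 from limma). Of the 3 members, 1 was thus called in Klko, where 11.3% of 14964 genes were called by limma, 723 higher and 964 lower, 11.5% by edgeR and 16.7% by DESeq2. Without Klko replicate 1 and Klhet replicate 5 the share was 4.54%. In Klhet 0 genes were called by limma (1690 at an unadjusted p under 0.05), 0 by edgeR and 6 (0.0401%) by DESeq2. For the difference between the comparisons 0 were called by limma (1328 at an unadjusted p under 0.05), 0 by edgeR and 48 (0.321%) by DESeq2.

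The references varied as widely as the members in these libraries. *Ttr* was 220 CPM in Klhet replicate 5 and 245 CPM in Klko replicate 1, and 2265 to 7717 CPM in the other 15 libraries. *Folr1* was 1.57 and 1.81 CPM in these 2 libraries. Both references were lower in Klko and Klhet than in their controls on average, without passing the test (*Ttr* -1.09, standard error 0.94, adjusted p = 0.468, and -1.21, standard error 0.89, adjusted p = 0.568, and *Folr1* -1.13 and -1.06, adjusted p = 0.397 and 0.576 from limma). Without Klko replicate 1 the difference in Klko was -0.12 for *Ttr* and -0.34 for *Folr1*, and without Klhet replicate 5 that in Klhet was -0.37 and -0.30. All 14 epithelial markers had a negative log2 difference in both comparisons, with a median of -1.06 and -1.14, and 0 of 14 were called in either. Without Klko replicate 1 and Klhet replicate 5 the 14 differences lay between -0.81 (*Prlr*) and -0.058 (*Calml4*) in Klko and between -0.74 (*Kcnj13*) and -0.066 (*Kcne2*) in Klhet. With every library, the median over all 14964 genes was -0.02 in Klko and -0.06 in Klhet, and 7962 and 9470 of them had a negative difference. In Klko the median was -0.04 for 8 ependymal markers and 0.15 for 8 meningeal markers, with 0 called in either list. It was -0.23 for 8 neuronal markers, of which 1 fell (*Syt1*, a synaptic vesicle calcium sensor), a share near the 11.3% of all genes called. The adjusted p of *Syt1* was 0.0297 from limma, 0.134 with only the 2 groups fitted and 0.0707 with a replicate block. It was 0.0529 to 0.103 without Klko replicates 3 or 4 or WT-y replicates 1, 3 or 4. In Klhet the medians were -0.38, 0.03 and -0.05, with 0 called in any of these lists, and all 8 ependymal markers had a negative difference. The summed level of the 14 markers was 289 to 5740 CPM in Klko, 2445 to 8177 in WT-y, 254 to 7260 in Klhet and 3452 to 8406 in WT-o. The mean log2 level of the 14 was also added to the fit as a covariate. With it, the difference of *Kl* in Klko was -2.20 (adjusted p = 1.08e-06), that of *Abca4* was 0.066 (adjusted p = 0.846) and that of *Slc39a4* was -0.48 (adjusted p = 0.167). In Klhet the differences were -0.68, -0.15 and -0.20 (adjusted p = 0.417, 0.751 and 0.717). The difference of *Kl* between the 2 comparisons then was -1.52 (adjusted p = 0.0115), the 1 gene called there.

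Ratios to *Folr1* were highest in the 2 libraries of low *Ttr*, except for *Kl* in Klko. *Abca4* per CPM of *Folr1* was 0.57 to 0.96 in Klko replicates 2 to 4 and 0.59 to 0.80 in WT-y, but 2.29 in Klko replicate 1. It was 0.51 to 0.75 in Klhet replicates 1 to 4, 2 in Klhet replicate 5 and 0.64 to 0.94 in WT-o. *Slc39a4* per CPM of *Folr1* was 0.11 to 0.20 in Klko replicates 2 to 4 and 0.18 to 0.29 in WT-y, and 0.82 in Klko replicate 1. *Kl* per CPM of *Folr1* was 0.62 to 1.63 in Klko and 3.9 to 4.77 in WT-y, without overlap. It was 2.44 to 2.94 in Klhet replicates 1 to 4, 9.94 in replicate 5 and 4.65 to 5.09 in WT-o. The log2 ratio of *Kl* to *Folr1* differed by -1.92 between Klko and WT-y (exact two-sided permutation p = 0.0286, the smallest that 4 against 4 allow). Over the 12 ratios tested, the adjusted p was 0.171 for *Kl* to either reference in Klko, 0.571 to 0.987 for *Kl* in Klhet and 0.987 to 1 for *Abca4* and *Slc39a4* in both. The difference in the log2 ratio of *Kl* to *Folr1*, Klhet minus WT-o, was -0.52 with Klhet replicate 5 and -0.83 without it. For the ratio to *Ttr* this difference was -0.38 and -0.77.

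**Figure D4:**
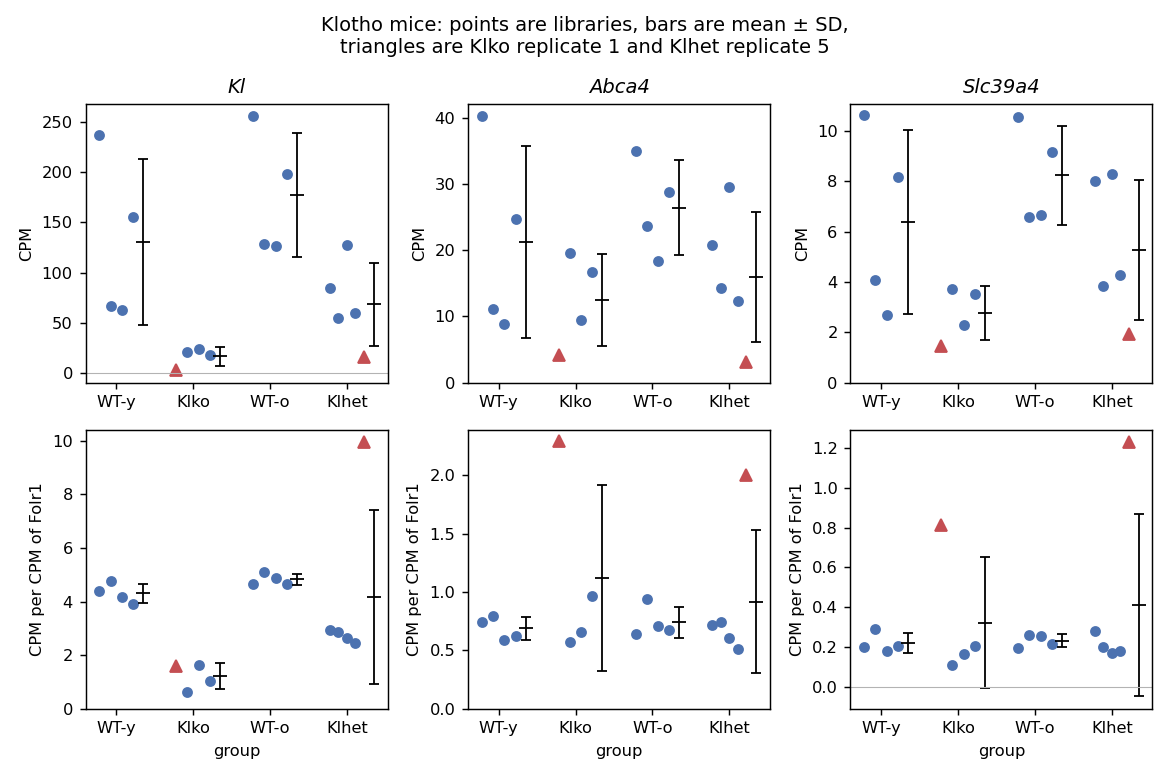
Level of Kl, Abca4 and Slc39a4 in the 17 libraries of Klotho mice by group (top, CPM) and the same values per CPM of Folr1 (bottom), on linear axes with mean and SD bars. Triangles are Klko replicate 1 and Klhet replicate 5, low in CPM for each gene. Per Folr1 the other Klko libraries overlap WT-y for Abca4 and Slc39a4 but not for Kl.

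Across the 17 libraries of the Klotho mice, the members followed the references. *Abca4* had a Pearson r of 0.94 with *Ttr* and 0.96 with *Folr1* (Spearman rho 0.96 for both), *Slc39a4* of 0.82 and 0.87 (rho 0.90 and 0.91) and *Kl* of 0.80 and 0.83 (rho 0.81 for both). For r the permutation p was 1e-05 for *Abca4* and *Slc39a4* with both references, the smallest that 100000 resamples can give, and 5e-05 and 2e-05 for *Kl*, and the adjusted p over 18 relations in the 3 tables was at most 6.92e-05. For rho the adjusted p was at most 0.00028 by permutation. Without Klhet replicate 5 and Klko replicate 1, the libraries farthest from the median of either reference, r was 0.93 for *Abca4* with both, 0.83 and 0.88 for *Slc39a4* and 0.62 and 0.70 for *Kl* (n = 15). The libraries share 1 scaling and include genotypes that target *Kl*, and no batch is given in the labels. Single groups hold 4 or 5 libraries, too few for a relation within them.

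The genes most like each member were ranked by Spearman rho of CPM within a table, among genes with a mean of at least 1 CPM. In the Klotho mice these were *F5*, *Slc4a5*, *Clic6*, *Baiap2l1* and *Gas6* for *Abca4* (rho 0.99 to 0.98, 17 libraries), of which the first 3 are on the list of epithelial markers. For *Kl* they were *Ctsd*, *Prlr*, *Atp11a*, *Wdr78* and *Usp25* (0.96 to 0.94) and for *Slc39a4* *Drc7*, *Pla2g5*, *Prlr*, *Rbm47* and *Sulf1* (0.96 to 0.94). *Slc39a4* ranked 6 for *Kl* (rho 0.93). Between *Kl* and *Abca4* rho was 0.85 in the Klotho mice, 0.88 in the choroid plexus, over both sets, and 0.31 in the hippocampus. In the choroid plexus they included *Vwa8*, *Cachd1*, *Nfe2l1* and *Golga4* for *Kl* (0.96 to 0.93, 34 libraries) and were *Cachd1*, *Nomo1*, *Abcc4*, *Tmem260* and *Abhd2* for *Abca4* (0.95 to 0.94), and *F5* ranked 9 for *Kl*. For *Slc39a4* they were *Scnn1b*, *Trf*, *Grhpr*, *Gas2l2* and *Ttc21a* at a lower rho of 0.77 to 0.74. These choroid plexus values are over all 34 libraries and so include the split between the sets. In the hippocampus rho was 0.63 to 0.61 for *Kl* (*Syne1*, *Ppp3ca*, *Sphkap*, *Kcns2* and *Anapc1*), 0.68 to 0.62 for *Abca4* (*Arhgef2*, *B4galt1*, *Afap1l2*, *Kdr* and *Nhlh1*) and 0.70 to 0.56 for *Slc39a4* (*Litaf*, *Dock5*, *Mog*, *Enpp2* and *Mal*, of which *Mog* and *Mal* are myelin genes). None of these 15 is among the 6 epithelial markers listed in the hippocampus, but *Folr1* ranked 13 of 14023 for *Slc39a4* (rho 0.53), *Prlr* 58 for *Slc39a4* and *Sostdc1* 59 for *Kl*.

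Among receptors and sheddases of Klotho, 6 of 9 listed genes were in the Klotho table, and *Klb*, *Fgfr4* and *Fgf23* were in none of the 3 tables. In Klko, 2 of 6 fell and 0 rose, with a median of -0.33 (all genes: -0.02, 11.3% called). *Adam10*, a sheddase, fell by 0.46 on the log2 scale (limma, standard error 0.08, adjusted p = 0.0054). It was called after leaving out any single library, and its adjusted p was 0.0771 with only the 2 groups fitted. *Fgfr2*, an FGF receptor, fell by 0.35 (adjusted p = 0.0459). Its adjusted p was 0.0519 from edgeR, 0.110 with only the 2 groups fitted and 0.051 to 0.126 after leaving out any library but Klhet replicate 5 or WT-o replicate 2. *Fgfr1* (-0.20, adjusted p = 0.406), *Fgfr3* (0.39, 0.0948), *Adam17* (-0.40, 0.0598) and *Bace1* (-0.32, 0.0756) did not pass. In Klhet 0 of 6 were called. In the hippocampus of the infused mice the medians of *Fgfr1* were 165, 176 and 185 CPM in Sham, YS and YDS, and those of *Adam10* were 60.3, 60.9 and 55.8 CPM. In the choroid plexus *Fgfr2* had a median of 254 CPM and *Fgfr3* of 16.6 CPM.

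Of the 11 ABCA family genes on the fixed list beside *Abca4*, 9 were in the Klotho table. In Klko 2 of 9 fell and 0 rose (median -0.34), where 11.3% of all genes were called, and in Klhet 0 were called (median -0.22). *Abca8a*, a lipid transporter of oligodendrocytes and other cells, fell by 0.84 (limma, standard error 0.19, adjusted p = 0.015), with an adjusted p of 0.0505 without WT-y replicate 1 and 0.0948 with only the 2 groups fitted. *Abca2*, a lipid transporter of myelinating cells, fell by 0.37 (adjusted p = 0.038), and its adjusted p was 0.0732 to 0.112 without Klko replicates 1, 2 or 3 or WT-y replicates 1, 3 or 4. It was 0.130 with only the 2 groups fitted and 0.0553 with a replicate block. In the infused mice *Abca2* had a median of 415.1 CPM in the hippocampus and 605 CPM in the choroid plexus. *Abca1*, a cholesterol exporter, had medians of 188, 145 and 155 CPM in Sham, YS and YDS in the choroid plexus. These medians include the 11 libraries that stood apart (2 Sham, 4 YS and 5 YDS). Over the 34 libraries *Abca1* was 66.3 to 221 CPM.

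Of the zinc importer family, 12 of the 13 genes beside *Slc39a4* were in the Klotho table, and *Slc39a5* was in none. In Klko 1 of 12 fell and 0 rose (median -0.10), a share near the 11.3% of all genes called, and in Klhet 0 were called (median -0.09). *Slc39a14* (ZIP14, an importer of zinc, iron and manganese) fell by 0.37 (limma, standard error 0.10, adjusted p = 0.0333). Its adjusted p was 0.0611 to 0.115 without Klko replicates 1, 3 or 4 or WT-y replicates 1, 3 or 4, 0.169 with only the 2 groups fitted and 0.0793 with a replicate block. In the choroid plexus *Slc39a12* (ZIP12) had medians of 382, 359 and 386 CPM in Sham, YS and YDS, with the libraries that stood apart included. In the hippocampus those of *Slc39a10* (ZIP10) were 130, 117 and 118 CPM and those of *Slc39a7* (ZIP7) 113, 112 and 113 CPM.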

How the data were processed

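Bulk RNA of 89 libraries was sequenced by the study, aligned to mm10 with Subread and counted with featureCounts. The authors deposited CPM per gene (reads over the library total, with no further factor), beside their own edgeR fold changes and p-values, which were not used. CPM steps gave whole reads for 100% of low values (within 0.05 reads) and the depths. Of the Klotho table's 14967 rows, 3 repeated symbols were left out, and 19 to 23 symbols per table that had become dates were restored. The members and lists were chosen with earlier results of these data known. Named genes were the members, references, fixed lists and the 5 genes most like each member, of which 1 is not reported here. The 4 Klotho groups were fitted together with limma 3.58.1 (trend, log2(CPM + 0.5), R 4.3.3), Benjamini-Hochberg adjusted over 14964 genes at 0.05, two-sided, with edgeR 4.0.16 and DESeq2 1.42.0 (14956 genes) on recovered reads as alternatives. The pseudocount understates changes of low genes. Fits were tested on simulated reads with the same spread setting for every gene and no variation in choroid plexus content, unlike these libraries. Permutation tests used scipy 1.17.1, exact for log ratios and with 100000 resamples for correlations. Coordinates are those of GENCODE vM21 (GRCm38), and exon lengths merge all annotated exons. Promoters, from RefSeq, were found for 2 of 3 members. Infusion arms, absent from the titles, were described without a test. Strand use in counting is not given in the sources used here.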

Additional observations from a re-analysis of the deposited data

Results flagged for a closer look

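Of 30 combinations of a gene and a group (members and references in the 4 Klotho groups and in the Sham libraries of each tissue), 1 held a library far from the others. Chance alone gives such a value in about 1 of 20 groups. *Ttr* was at 263 CPM in Sham hippocampal library 5, compared with 1.83 to 57.6 CPM in the other 9 Sham libraries. Its *Kl* was 35.4 CPM, the highest of the Sham libraries, and its *Folr1* was 1.54 CPM.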

How the results depend on the processing

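The 1687 genes called in Klko became 20 with only the 2 groups fitted, 777 with a replicate block, 1067 with the choroid plexus covariate and 680 without Klko replicate 1 and Klhet replicate 5, chosen after seeing the data. Leaving out 1 library gave 464 (WT-y replicate 1) to 3879 (WT-y replicate 2), with 851 and 846 without Klko replicates 1 and 3 and 478 and 936 without WT-y replicates 3 and 4. In Klhet DESeq2 called 6, and leaving out 1 library gave 0 to 8. For the difference between the comparisons DESeq2 called 48 and the covariate fit 1, and leaving out 1 library gave 0 to 65. The numbers of the replicates do not pair the mice: the correlation of same-numbered deviations was -0.48 to 0.02. The block changed the direction of the *Abca4* difference between comparisons (-0.21), as edgeR (-0.072) and DESeq2 (-0.066) did. Leaving out 1 library gave -0.21 to 0.68 for it and -0.57 to 0.034 for *Slc39a4*.

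*Kl* in Klko had a difference of -3.06 with only the 2 groups (adjusted p = 0.0771), *Slc39a4* in Klko of -1.19 by DESeq2 (adjusted p = 0.0366) and *Kl* between comparisons of -1.52 with the covariate (adjusted p = 0.0115). With the covariate *Abca4* in Klko was 0.066, *Ttr* was 0.22 in Klko and 0.17 in Klhet, and *Folr1* was 0.029 and 0.18. The cause of these changes was not tested. Leaving out 1 library, differences in log2 ratio to *Ttr*, Klko minus WT-y, were -0.16 to 0.65 for *Abca4* and -0.63 to 0.49 for *Slc39a4*. For the ratio to *Folr1* the difference was -0.42 to 0.52 for *Slc39a4*. The differences of Klhet minus WT-o for *Abca4* and *Slc39a4* were -0.13 to 0.37 and -0.083 to 0.69 for ratios to *Ttr*. For ratios to *Folr1* they were -0.19 to 0.25 and -0.14 to 0.53. In the hippocampus r of *Abca4* with *Ttr* was -0.020 without the 4 libraries of high *Ttr*. With a median of 29 reads per library, counting error limits what hippocampal *Slc39a4* can show between arms.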
